A study of Mus musculus with 19 samples.

Results

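The genes described here are 10 enzymes of the route from tryptophan to kynurenine and NAD and of its side branches, namely Tdo2, Ido2, Afmid, Kmo, Kynu, Haao, Acmsd, Aadat, Qprt and Nadsyn1. They were taken by symbol from the 24054 gene symbols of a liver RNA-seq table, and all 10 were found. All 10 also passed the filter on low values (a mean of at least 1), which left 11580 genes tested. The table compares 3 L-RalyKO mice with 3 controls, whereas the study's figure legend gives 4 per group for the RNA-seq. All 6 were Raly flox/flox mice on a C57BL/6 background, fed chow and killed 4 weeks after an adeno-associated virus. L-RalyKO mice had received AAV8.TBG.Cre, in which the hepatocyte promoter TBG drives Cre recombinase, and controls AAV8.TBG.GFP, so that the controls also carried the floxed alleles and a virus, although the labels call them wild type. The study used male mice unless stated otherwise, and the age of these mice is not given in the sources used here. Nor is it given whether they had fasted, although the study mentions fasting mice beside its qPCR of Srebp1c in chow-fed liver. TBG does not target the other cells of the liver. Replicates are separate samples by their labels, and p-values measure the spread between them.

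The liver is where most dietary tryptophan that is not built into protein is broken down. TDO2 opens the indole ring, AFMID releases kynurenine, and KMO, KYNU and HAAO turn kynurenine into an unstable semialdehyde. From there the route divides. ACMSD removes a carboxyl group and sends the carbon to oxidation by way of glutaryl-CoA. Where ACMSD does not act, the semialdehyde closes by itself to quinolinate, which QPRT and later NADSYN1 take to NAD. AADAT leaves the route earlier, turning kynurenine into kynurenic acid.

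Values are the deposited normalised signal, read counts per gene scaled to the library's effective size and not to gene length. Between 28302983 and 38052705 reads per mouse were counted on genes. Each member had between 281 and 73062 reads in a mouse. Raly, which Cre was to delete, stood at 6.34, 6.61 and 7.39 in L-RalyKO and at 50.1, 48.6 and 46.8 in control liver (log2 fold change −2.67), and no library went against its label. Control mouse 1 stood farther from the other controls (chi-square per degree of freedom of 71.1 and 84.3 between libraries) than any other 2 mice of a group from each other (12.6 to 27.4), and each call that was lost without it is given with its value there. The defining hepatocyte genes were abundant in every mouse, with Alb (albumin) between 63858 and 71897.

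Of the 10 genes, 2 passed the test, Tdo2 and Acmsd, both higher in L-RalyKO liver (adjusted p under 0.05, limma with Benjamini-Hochberg adjustment over all genes tested). That is 20% of the members, and among all genes tested 6.55% passed, 3.36% higher and 3.19% lower. The other 8 did not pass. An unadjusted p under 0.05 (limma) was reached by 6 of the 10 and by 22.7% of all genes tested. The groups did not overlap for 6 of the 10 genes, 5 with every L-RalyKO mouse above every control and 1, Kmo, with every L-RalyKO mouse below, against 28.1% of all genes tested (14.4% above and 13.7% below). The median log2 fold change of the 10 was 0.07 and that of all genes tested was 0.00. Differences are L-RalyKO minus control on log2(value + 1), and their median size was 0.13 in the 10 genes and 0.10 in all genes tested.

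**Figure D1:**
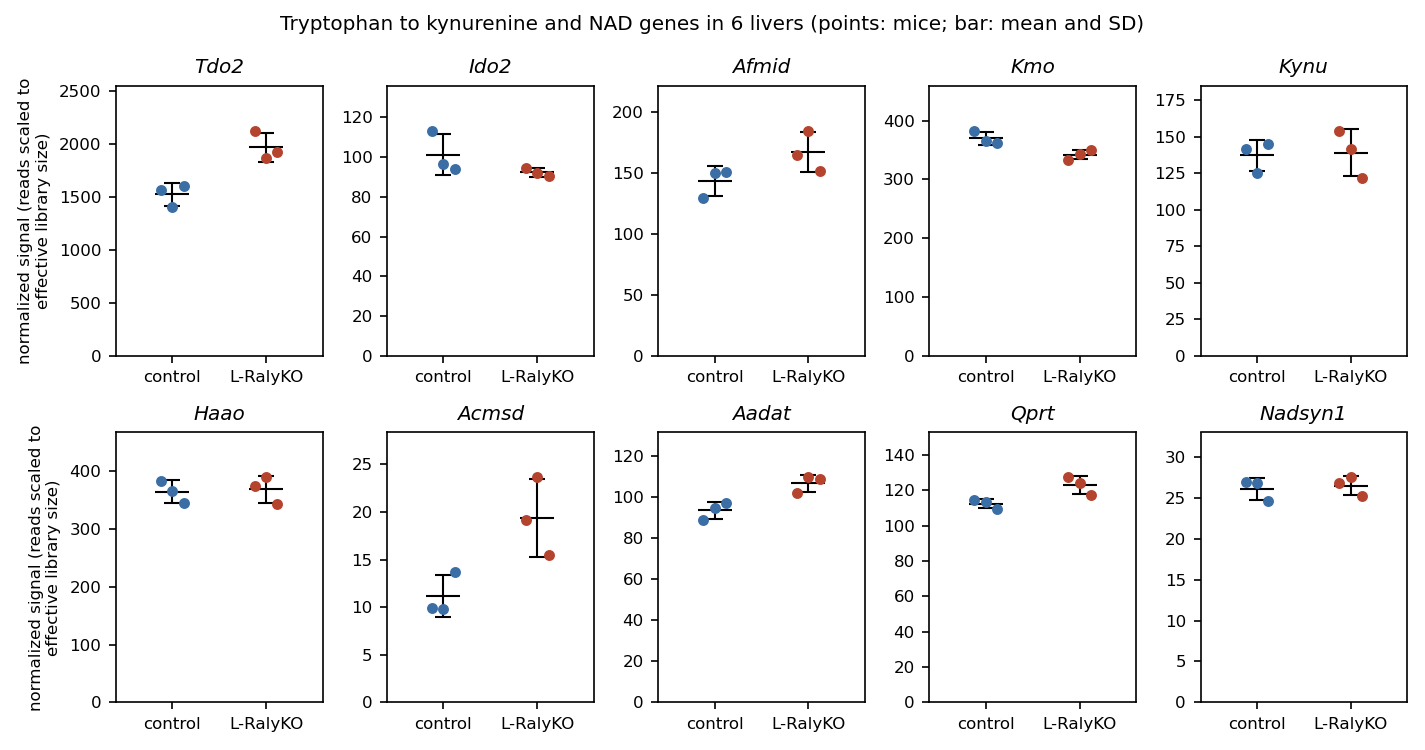
Normalised signal (reads scaled to effective library size, as deposited) of each of the 10 genes, linear axes from 0. Each point is 1 mouse, with 3 controls in blue and 3 L-RalyKO mice in red, and the bar gives the mean and SD. Tdo2 and Acmsd lay higher in all 3 L-RalyKO mice than in all 3 controls, whereas the groups overlapped for Ido2, Kynu, Haao and Nadsyn1.

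Promoter sequence is shown for Tdo2, one of the genes that passed the test. The letters searched were CCAAT (bound by NFY), TATAAA (the TATA box), GTTAAT (part of an HNF1 site), TGTTCT (part of a glucocorticoid receptor site) and GCGTG (the core bound by AHR). The RefSeq table of promoters (GRCm38.p6) held 8 of the 10 genes, without Ido2 and Kynu, and the 250 bases before each start were searched on both strands. CCAAT (or ATTGG, its reverse) was present in 1 of the 8, Tdo2, and in 33.8% of all 32851 promoters of that length. In Tdo2 it lay on the opposite strand between 78 and 74 bases before the RefSeq start, at chr3:81779712-81779741 of NCBIM37 (mm9) in the 30-base window that follows. This window lies in an exon of Tdo2 in the GENCODE vM1 annotation, where another transcript begins further upstream. Of the 250 bases searched 228 lie in exons for Tdo2, as do 197 for Kmo, 197 for Qprt and, in exons of the neighbour Tk1, 205 for Afmid, so that the counts out of 8 rest partly on exon sequence. The capitals mark the match, and the minus strand is read 5′ to 3′.
Tdo2: aagctgggtgctgATTGGctgtgtctggca
TATAAA was found in 1 of the 8 (Tdo2) and in 12.4% of all promoters, GTTAAT in 1 (Haao) and in 6.43%, TGTTCT in 1 (Haao) and in 16.1%, and GCGTG in 2 (Tdo2 and Haao) and in 28.2%.

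The first step belongs to Tdo2 and Ido2. Tdo2 (ENSMUSG00000028011.9, chromosome 3 from 81761012 to 81780124, minus strand), the haem dioxygenase that sets the pace of tryptophan breakdown in liver, had values of 2125, 1866 and 1922 in L-RalyKO and of 1567, 1406 and 1603 in control liver. Every L-RalyKO mouse lay above every control, and the gap between the groups was wider than the range within the controls. Mean values were 1971 ± 136 and 1525 ± 105 (SD, n = 3 mice each), and Tdo2 rose 1.29-fold, by 0.37 on the log2 scale (standard error 0.08, 95% interval 0.20 to 0.54) with an adjusted p of 0.0265 (limma). Tdo2 alone took between 0.186% and 0.206% of all counted reads in L-RalyKO and between 0.142% and 0.162% in control liver.

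Ido2 (ENSMUSG00000031549.9, chromosome 8 from 25642364 to 25686805), which encodes a related activity on the same substrate, did not pass the test. It had values of 94.6, 91.7 and 90.3 in L-RalyKO and of 113, 96.6 and 93.9 in control liver, and the groups overlapped. Its log2 fold change was −0.13 (95% interval −0.29 to 0.03, adjusted p = 0.334, limma), and −0.05 without control mouse 1. Ido1, the dioxygenase of immune cells, is listed at 0 reads in all 6 mice, where 3 reads would be a value between 0.0789 and 0.105. Within a mouse, where the scaling of the library cancels, the value of Tdo2 divided by that of Ido2 was 22.5, 20.3 and 21.3 in L-RalyKO and 13.9, 14.6 and 17.1 in control liver. This ratio, like that of Acmsd to Qprt given further on, was chosen from 5 computed after the values were seen, and is given without a test.

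Afmid (ENSMUSG00000017718.8, chromosome 11 from 117670982 to 117701222), the formamidase of the second step, had values of 165, 185 and 152 in L-RalyKO and of 130, 150 and 151 in control liver. The groups were separated by less than 1 unit, between the third L-RalyKO mouse and the third control. The log2 fold change was 0.22 (95% interval 0.03 to 0.41) and did not pass the test (adjusted p = 0.169, limma). Exons of Syngr2 on the same strand and of Tk1 on the other cover 3.62% and 2.21% of its exons, so that a small part of its reads could belong to them.

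The 3 enzymes that follow on the way to the branch point did not pass the test. Kmo (ENSMUSG00000039783.9, chromosome 1 from 177550512 to 177592247), the hydroxylase of the outer mitochondrial membrane, had values of 334, 343 and 351 in L-RalyKO and of 382, 365 and 361 in control liver. It was the only one of the 10 genes with every L-RalyKO mouse below every control. Its log2 fold change was −0.11 (95% interval −0.22 to −0.002, adjusted p = 0.213, limma). Kynu (ENSMUSG00000026866.9, chromosome 2 from 43410849 to 43538235), the kynureninase, had values of 154, 142 and 122 in L-RalyKO and of 142, 125 and 145 in control liver. Haao (ENSMUSG00000000673.8, chromosome 17 from 84230696 to 84246130), the dioxygenase that makes the semialdehyde, had values of 373, 389 and 343 in L-RalyKO and of 383, 365 and 344 in control liver. The groups of both genes overlapped throughout, with log2 fold changes of 0.02 for Kynu (95% interval −0.19 to 0.22) and of 0.02 for Haao (−0.13 to 0.16). These intervals reach from 0.877-fold to 1.17-fold for Kynu and from 0.915-fold to 1.12-fold for Haao, and the sign of both changed under other settings.

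At the branch point Acmsd passed the test and Qprt and Nadsyn1 did not, and the difference between these genes was not tested. Acmsd (ENSMUSG00000026348.6, chromosome 1 from 129625990 to 129664141, plus strand), the decarboxylase that leads away from NAD, had values of 19.2, 23.6 and 15.4 in L-RalyKO and of 9.87, 9.85 and 13.7 in control liver. Every L-RalyKO mouse lay above every control, but the third mouse of each group came within 2 units of the other. Mean values were 19.4 ± 4.09 and 11.1 ± 2.22 (SD, n = 3 mice each), and Acmsd rose 1.68-fold, by 0.75 on the log2 scale (standard error 0.16, 95% interval 0.38 to 1.11) with an adjusted p of 0.0326 (limma). It was the widest change of the 10 genes and also the least precise, since the mice of a group varied by 19.9% to 21.1% (coefficient of variation), of which counting 281 to 814 reads accounts for at most 5.97%.

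Qprt (ENSMUSG00000030674.5, chromosome 7 from 134250628 to 134265740), which commits quinolinate to NAD, had values of 127, 124 and 117 in L-RalyKO and of 114, 113 and 110 in control liver. The groups did not overlap, but the log2 fold change of 0.13 (95% interval 0.02 to 0.24) did not pass the test (adjusted p = 0.167, limma). Nadsyn1 (ENSMUSG00000031090.8, chromosome 7 from 150981489 to 151008754), the last enzyme of the route, had values of 26.8, 27.5 and 25.2 in L-RalyKO and of 26.9, 26.8 and 24.5 in control liver. The groups overlapped, with a log2 fold change of 0.02 (95% interval −0.12 to 0.16, adjusted p = 0.89, limma). The value of Acmsd divided by that of Qprt in the same mouse was 0.151, 0.190 and 0.132 in L-RalyKO and 0.0863, 0.0869 and 0.125 in control liver. The third mouse of each group again lay closest to the other group.

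Aadat (ENSMUSG00000057228.4, chromosome 8 from 62984921 to 63024474), the aminotransferase that forms kynurenic acid and also acts on aminoadipate of lysine breakdown, had values of 102, 110 and 109 in L-RalyKO and of 89.0, 94.8 and 97.1 in control liver. The groups did not overlap. Its log2 fold change of 0.19 (95% interval 0.07 to 0.31) missed the threshold (adjusted p = 0.0736 by limma, with 0.0623 to 0.204 in the 16 alternatives).

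**Figure D2:**
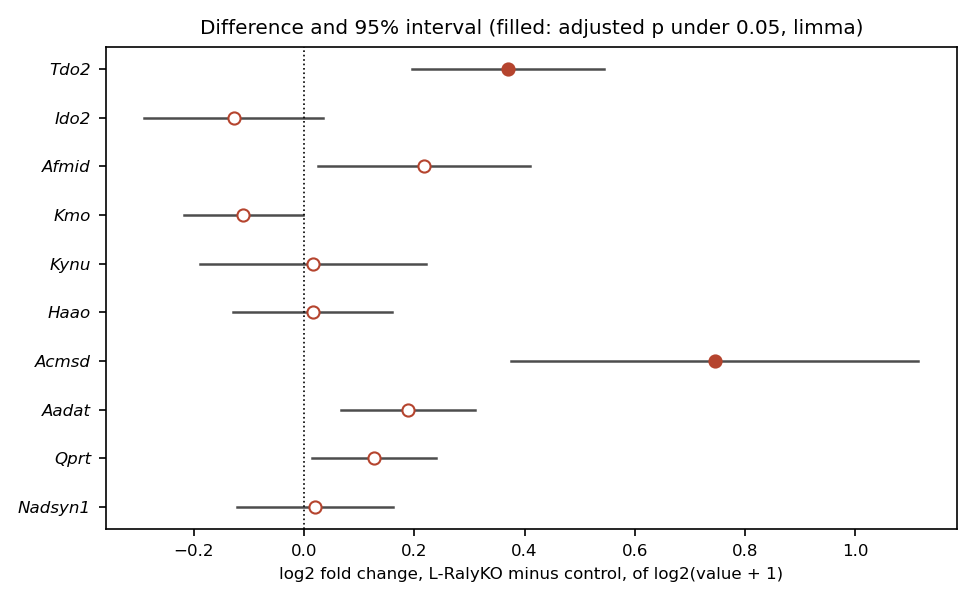
Log2 fold change of each of the 10 genes (L-RalyKO minus control, on log2 of value + 1), from the first step of the route at the top. Circles give the estimate from 3 mice against 3 and lines the 95% interval of the limma fit, and filled circles mark an adjusted p under 0.05. Only Tdo2 (0.37) and Acmsd (0.75) are filled, and 4 of the 8 open circles have an interval that crosses 0.

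Leaving out mice changed the calls for Tdo2 and Acmsd. Each lost its call in 4 of the 6 fits that left out 1 mouse, with adjusted p up to 0.0959 for Tdo2 and 0.108 for Acmsd (limma), and these were the fits without L-RalyKO mouse 1 or 3 or control mouse 1 or 2 for Tdo2, and without L-RalyKO mouse 1 or 2 or control mouse 1 or 2 for Acmsd. Without control mouse 1, the mouse that stood apart, the log2 fold changes were 0.39 (adjusted p = 0.0605) and 0.67 (adjusted p = 0.108). Both kept their direction in all 16 alternatives. Acmsd also lost its call with a replicate block (adjusted p = 0.0672, limma) and without an intensity trend (adjusted p = 0.0592, limma). With no filter on low values neither passed (adjusted p = 0.0722 for Tdo2 and 0.0699 for Acmsd, limma). The smallest two-sided p of an exact permutation test of 3 mice against 3 is 0.1, and this was reached for each of the 6 genes whose groups did not overlap.

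Levels were compared between genes only after division by the length of the annotated exons (GENCODE vM1). In control liver Tdo2 stood first at 395 ± 27.2 per kb and Haao second at 298 ± 16.03 (SD, n = 3 mice). Kmo followed at 78.2 ± 2.37 per kb, Aadat at 49.6 ± 2.22, Qprt at 42.5 ± 0.966, Afmid at 38.3 ± 3.25, Ido2 at 27.8 ± 2.85 and Kynu at 18.4 ± 1.40. Nadsyn1 (7.89 ± 0.406 per kb) and Acmsd (4.84 ± 0.964) were the lowest. Among 10865 tested genes with an annotated length, 1.19% stood above Tdo2 and 48.3% above Acmsd. No 2 neighbours of this order overlapped in the control mice. In L-RalyKO liver the ranges of Qprt and Afmid overlapped, as did those of Acmsd (6.71 to 10.3 per kb) and Nadsyn1 (7.61 to 8.31). With the longest transcript as the length the order of Aadat, Qprt and Afmid turned round (52.6, 54.8 and 61.7 per kb) and Kynu (49.4) stood above Ido2 (31.6), so that these neighbours have no firm order.

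**Figure D3:**
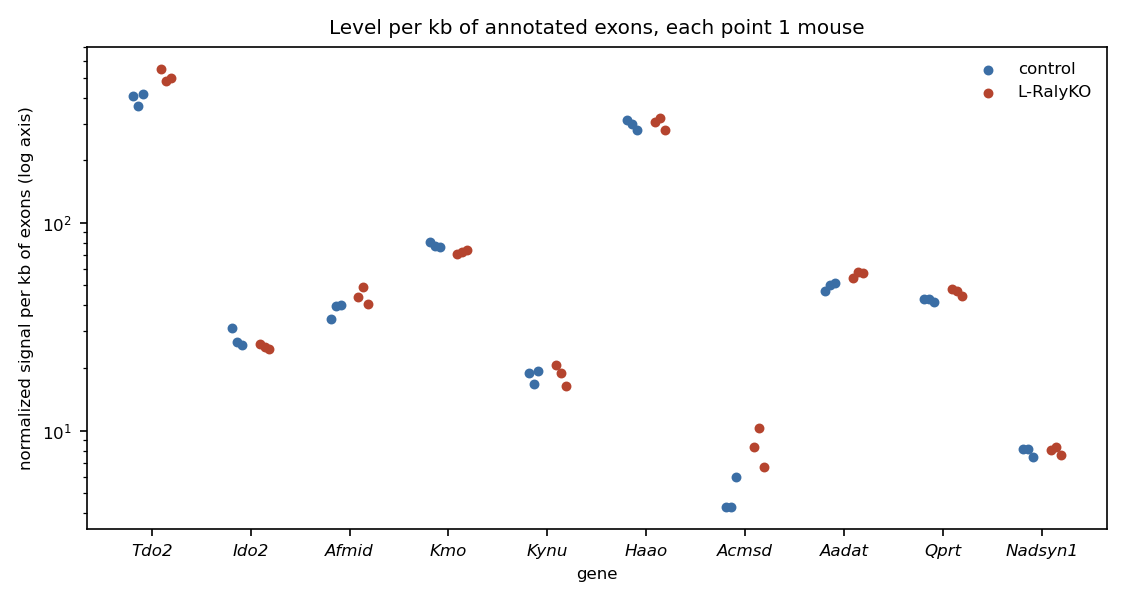
Normalised signal per kb of annotated exons on a log axis, in the order of the route. Each point is 1 mouse, with controls in blue and L-RalyKO mice in red. Tdo2 and Haao lie at or above 280.6 per kb in all 6 mice, and Acmsd and Nadsyn1 lie at or below 10.3.

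Other genes of the pathway were counted from lists of textbook genes, chosen with earlier results of these data known. Of 7 further enzymes of kynurenine metabolism 6 were tested, and 3 rose and none fell. That is 50% of those tested, against 6.55% of all genes tested (3.36% higher and 3.19% lower). Of 3 further enzymes with kynurenine aminotransferase activity (Kyat1, Kyat3 and Got2), Kyat1 and Kyat3 rose. Kyat1 (Ccbl1 in the table) had values of 104, 104 and 91.3 in L-RalyKO and of 68.3, 71.8 and 66.7 in control liver, so that it rose by 0.53 on the log2 scale (limma, adjusted p = 0.00312). It kept an adjusted p under 0.05 in all 16 alternatives. Kyat3 (Ccbl2 in the table) had values of 187, 146 and 188 against 115, 104 and 128, so that it rose by 0.58 on the log2 scale (limma, adjusted p = 0.0185), and lost its call in 4 of the 6 fits without 1 mouse. An antisense transcript, Gm15540, covers 10.1% of the exons of Kyat3, and whether the authors counted by strand is not given in the sources used here. Dhtkd1, which acts on oxoadipate further down the ACMSD arm, rose by 0.24 on the log2 scale (limma, adjusted p = 0.0459) and lost its call in 8 of its 16 alternatives. Aldh8a1, Got2 and Gcdh had log2 fold changes of −0.10, −0.07 and −0.06 and did not pass.

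Among 12 tested genes of NAD salvage and nicotinamide handling 1 rose and 2 fell (median log2 fold change −0.03). That is 25%, against 6.55% of all genes tested. DESeq2 called 5, with Nampt higher and Aox3 lower. Without L-RalyKO mouse 1, L-RalyKO mouse 3 or control mouse 1 the list had 1 call. Nnmt, which methylates nicotinamide, had values of 91.8, 93.6 and 85.5 in L-RalyKO and of 57.2, 63.5 and 67.1 in control liver. Its log2 fold change was 0.52 (adjusted p = 0.00424, limma), under 0.05 in all 16 alternatives. Nmnat3, the mitochondrial adenylyltransferase, fell (log2 fold change −0.48, adjusted p = 0.0197, limma), and so did Nt5e, an ectonucleotidase (−0.53, adjusted p = 0.0397, limma). Each of these 2 lost its call in at least 4 of the 6 fits without 1 mouse. Nampt, the pacemaker of salvage, had values of 119, 140 and 142 in L-RalyKO and of 93.2, 98.5 and 127 in control liver, which overlapped (adjusted p = 0.124, limma).

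Of 14 tested genes whose products consume NAD 1 fell and none rose (7.14%, near the 6.55% of all genes tested), among them all of Sirt1 to Sirt7 without a call. The one that fell was Parp3 (log2 fold change −0.29, adjusted p = 0.0488, limma), which lost its call in 8 of its 16 alternatives. Without L-RalyKO mouse 3 the list had 2 calls, Parp14 (−0.34, adjusted p = 0.0267) and Tnks (−0.37, adjusted p = 0.0487), and Parp3 was not among them (limma). Among 11 tested genes of tryptophan transport and other uses 2 rose and 1 fell. Slc16a10, which carries aromatic amino acids across the plasma membrane, had values of 148, 129 and 119 in L-RalyKO and of 88.6, 98.8 and 102 in control liver (log2 fold change 0.45, adjusted p = 0.0185, limma), and lost its call in 3 of the 6 fits without 1 mouse. Slc43a1, a carrier of large neutral amino acids, rose by 0.69 on the log2 scale (adjusted p = 0.0354, limma). Maoa, which oxidises serotonin, fell by 0.49 on the log2 scale (adjusted p = 0.0197, limma). Each of these 2 lost its call in 4 of the 6 fits without 1 mouse. Tph1 and Tph2, which lead tryptophan to serotonin, are listed at 0 reads in all mice.

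Among 13 tested transcription factors of hepatocytes Hnf4a and Foxa2 rose and none fell. Hnf4a had values of 900, 809 and 829 in L-RalyKO and of 520, 542 and 680 in control liver (log2 fold change 0.55, adjusted p = 0.0155, limma), and lost its call in 3 of the 6 fits without 1 mouse. Foxa2 rose by 0.86 on the log2 scale (limma, adjusted p = 0.0126), and lost its call without control mouse 1. The NFY subunit genes Nfya, Nfyb and Nfyc did not pass (log2 fold changes −0.10, 0.06 and 0.01). Kynurenine and kynurenic acid are known as ligands of the receptor AHR, and Tdo2 is a textbook target of glucocorticoids. Of 4 tested AHR targets 1 rose, Cyp1a2 (log2 fold change 0.48, adjusted p = 0.0441, limma), which lost its call in 8 of its 16 alternatives. Of 10 glucocorticoid targets 5 rose and none fell, Fkbp5 by 1.495, Lpin1 by 1.36, Mt2 by 1.11, Mt1 by 1.003 and Pck1 by 0.78 on the log2 scale (adjusted p from 0.00312 to 0.025, limma), of which Mt2 lost its call in 6 of its 16 alternatives. Tsc22d3, of the same list, stood at −0.78 on the log2 scale (limma, adjusted p = 0.0594), Sgk1 at −0.45 (adjusted p = 0.0571), Angptl4 at −0.10, Per1 at −0.07 and Tat at 0.12, and none of these 5 passed. With total count scaling or without L-RalyKO mouse 3 the list had 7 calls, with Tsc22d3 and Sgk1 lower, and by DESeq2 6, with Sgk1 lower. For Tsc22d3 and Sgk1 the groups did not overlap, with L-RalyKO lower. In the 7 lists together 18 of 70 tested genes passed (25.7%), 14 higher and 4 lower, where 6.55% of all genes tested passed, 3.36% higher and 3.19% lower. The lists were chosen with earlier results of these data known.

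Without control mouse 1, the mouse that stood apart, 6 of these 18 genes passed, Kyat1, Nnmt, Pck1, Fkbp5, Mt1 and Lpin1. The other 12 kept their sign and lost their call (limma). The adjusted p was then 0.0501 for Foxa2 (log2 fold change 0.81), 0.0509 for Hnf4a (0.48), 0.0567 for Nmnat3 (−0.50), 0.0624 for Kyat3 (0.57), 0.0630 for Slc16a10 (0.39) and 0.0718 for Maoa (−0.47). It was 0.0759 for Mt2 (1.11), 0.112 for Nt5e (−0.52), 0.113 for Slc43a1 (0.60), 0.133 for Cyp1a2 (0.41), and 0.140 for both Dhtkd1 (0.21) and Parp3 (−0.23). No transcription factor of the list passed in that fit.

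**Figure D4:**
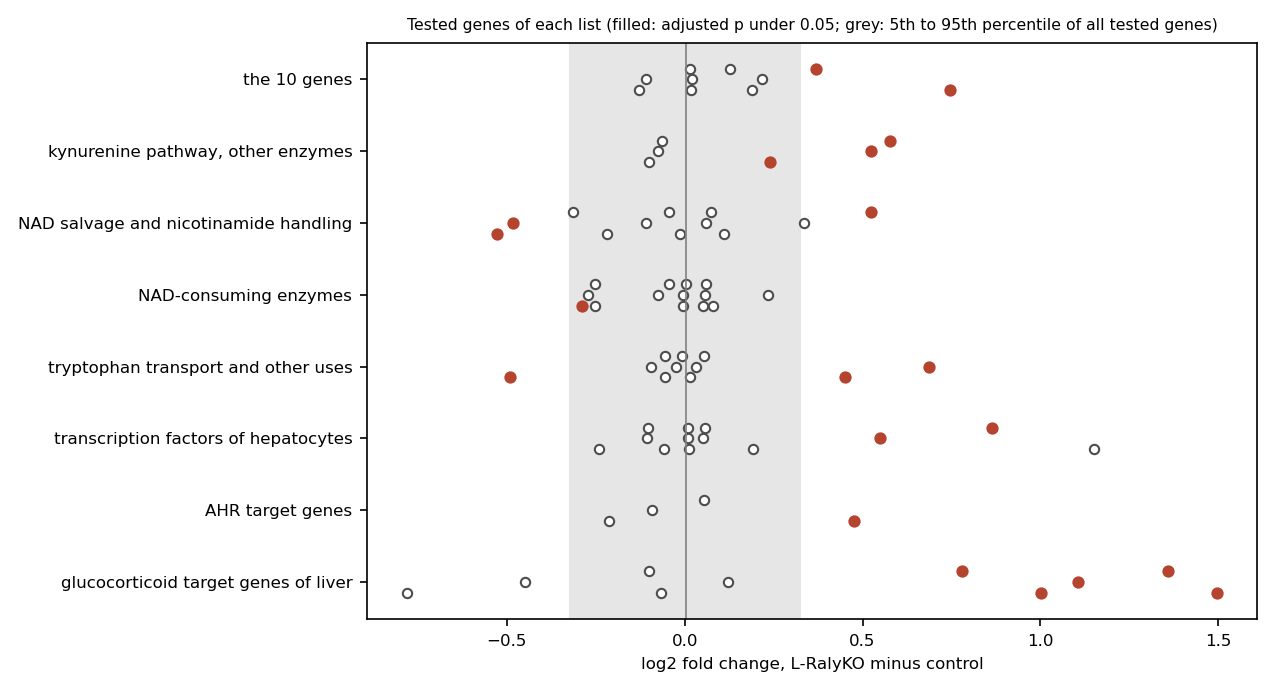
Log2 fold change (L-RalyKO minus control) of each tested gene, for the 10 genes in the top line and for the 7 lists below. Filled circles have an adjusted p under 0.05 (limma), the grey band runs from the 5th to the 95th percentile of all tested genes and the vertical line is their median. The 10 genes have 2 filled circles, both to the right of the band.

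Bulk liver holds several cell types, and more cells of a type and more RNA per cell cannot be told apart. No marker of the other cell types passed the test. The summed values of 7 Kupffer cell and macrophage markers ranged from 161 to 209 in L-RalyKO and from 156 to 234 in control liver, and those of 6 sinusoidal endothelial markers from 186 to 236 and from 207 to 220. Those of 6 stellate cell markers ranged from 202 to 266 and from 211 to 235, most of it Dcn and Reln, while Col1a1 (log2 fold change 0.46), Col3a1 (0.39) and Lrat (−0.43) had overlapping groups and adjusted p of 0.22 to 0.279 (limma). Those of 5 cholangiocyte markers ranged from 32.2 to 41.0 and from 32.5 to 34.7, most of it Spp1. Within that list Sox9 had values of 5.88, 4.70 and 4.29 in L-RalyKO and of 4.05, 2.81 and 2.46 in control liver (log2 fold change 0.55, adjusted p = 0.0774, limma). Krt19, with too few reads to be tested, had values of 0.553, 0.551 and 1.16 against 0.328, 0.456 and 0.405, and neither gene's groups overlapped. The summed values of 5 dendritic cell markers ranged from 3.42 to 4.79 and from 4.74 to 5.46. Among them Clec9a had values of 2.65, 2.495 and 3.26 in L-RalyKO and of 3.37, 3.68 and 3.27 in control liver, which did not overlap (adjusted p = 0.244, limma). The 5 lymphocyte markers summed to between 1.22 and 2.66 over all mice, with none tested. All 6 hepatocyte markers had a log2 fold change above 0, from 0.03 for Ttr to 0.32 for Cps1 (median 0.18), and none passed the test. For 2 of them, Cps1 and Apoa1, every L-RalyKO mouse lay above every control, as for 14.4% of all genes tested. Cps1 had values of 5485, 5901 and 5292 in L-RalyKO and of 4176, 4155 and 5026 in control liver. An unadjusted p under 0.05 (limma) was reached by 3 of the 6 and by 22.7% of all genes tested. The summed values ranged from 98616 to 100355 in L-RalyKO and from 88815 to 97208 in control liver, most of it Alb, whose groups overlapped. The part of these markers in the rise of Tdo2 and Acmsd was not tested.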

How the data were processed

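The authors sequenced stranded paired-end libraries and, per the labels and methods, aligned them with TopHat v2.0.2 to mm9 and used Cufflinks v2.0.2 and Cuffdiff. How the deposited values were made is not given in the sources used here. The values the authors deposited are a normalised signal, read counts per gene divided by the effective library size. In each library 100% of the values were whole multiples of the smallest one (tolerance 0.01 read), so that whole reads were recovered, and the scaling equalled TMM factors. EdgeR's quasi-likelihood test on these reads was an alternative.

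Groups were fitted in R 4.3.3 by limma 3.58.1, with its trend option, on log2(value + 1) of genes averaging 1 or more. Fold changes on this scale understate low genes. The design was written for counts, with this fit where values were not counts. The alternatives were edgeR 4.0.16, DESeq2 1.42.0, limma voom, other scalings, filters and pseudocount, no trend, a replicate block and leaving out each mouse. The fits were tested on simulated data, with 1 set spread for all genes rather than that of these mice. There limma called 4 of 49 genes changed 1.3-fold, 16 of 49 changed 1.5-fold and 50 of 50 changed 2-fold. Small changes were thus mostly missed in that simulation. Intervals are at the 95% level. Lengths and coordinates come from GENCODE vM1 on NCBIM37, which is mm9.

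The members and lists were chosen with earlier results of these data known. Named were the 10 members, Raly, list genes with an adjusted p under 0.05, at most 2 others per list without such a gene, and cell markers. Further genes without a call (Aldh8a1, Got2, Gcdh, Nampt, Aox3, Parp14, Tnks, the NFY subunits, the Sirt genes, Tsc22d3, Sgk1, Angptl4, Per1, Tat and the markers Alb, Apoa1, Ttr, Cps1, Spp1, Sox9, Krt19, Dcn, Reln, Col1a1, Col3a1, Lrat and Clec9a) and Ido1, Tph1 and Tph2 were named after their values were seen. ATAC-seq and ChIP-seq samples were not analysed here. One sequence is not reported here.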

Additional observations from a re-analysis of the deposited data

How the results depend on the processing

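Direction held for Tdo2, Ido2, Afmid, Kmo, Acmsd, Aadat and Qprt in all 16 alternatives, and the 8 members without a call gained none. Of the 10 alternatives other than leaving out a mouse, Tdo2 kept an adjusted p under 0.05 in 9 and Acmsd in 7. With no filter on low values 17216 genes were tested, in a fit run anew on them, and no member passed. Tdo2 stood at 0.37 (adjusted p = 0.0722, limma) and Acmsd at 0.75 (adjusted p = 0.0699, limma). In that fit 484 genes passed in all and 10 of the pathway lists. Without an intensity trend 1 member passed, with Acmsd at 0.75 (adjusted p = 0.0592, limma). With total count scaling, which moved the median of all genes to −0.03, the signs of Kynu (−0.018), Haao (−0.018) and Nadsyn1 (−0.013) reversed and 40.9% of calls were higher, against 51.3% with the deposited scaling. For these reversals and losses the cause was not tested.

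Leaving out 1 mouse gave from 332 to 813 genes in all, from 0 to 2 members and from 6 to 16 genes of the pathway lists. The log2 fold change then lay from 0.31 to 0.41 for Tdo2, from 0.60 to 0.89 for Acmsd, from −0.060 to 0.11 for Kynu, from −0.024 to 0.067 for Haao and from −0.022 to 0.055 for Nadsyn1. Tdo2 was lost without L-RalyKO mouse 1 or 3 or control mouse 1 or 2, and Acmsd without L-RalyKO mouse 1 or 2 or control mouse 1 or 2. The 18 list genes kept their sign in 288 alternative values and lost their call in 64.

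Same-numbered mice are different animals. Their deviations correlated by 0.07, −0.02 and 0.02, and those of differently numbered mice by −0.09 to 0.06. With 3 mice per group these values cannot settle whether same-numbered mice share anything beyond the number. With the replicate block the NAD salvage list had 5 calls and the glucocorticoid list 7, and 1 member passed, Tdo2, and Acmsd at 0.75 did not (adjusted p = 0.0672, limma). At these depths counting error was at most 5.97% for a member.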
